A study of Homo sapiens with 6 samples.

Results

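The genes described here encode the chains of integrins and laminins. They were taken by symbol: integrin chains are the genes named ITGA or ITGB with a number, together with ITGAV, ITGAL, ITGAM, ITGAX, ITGAD, ITGAE and ITGA2B, and laminin chains are those named LAMA, LAMB or LAMC with a number. A transcript cluster is a set of array probes summarised together. Of 21214 clusters with a gene symbol, 19460 had exactly 1 symbol. Of the latter, 35 met the rule, for 17 integrin alpha, 8 integrin beta and 10 laminin chains, and each gene had 1 such cluster. ITGA1 was left out because its cluster also carries the neighbouring gene PELO. Laminin chains outside these 10 were not analysed here. RNA came from 3 related human breast cancer cell lines on 6 Affymetrix Human Gene 1.0 ST arrays, 2 replicates called biological for each line. MDA-MB-231 is the parental line, of triple-negative and mesenchymal character, from which 231BoM-1833 was derived by selection for metastasis to bone, and 231BrM-2a by selection for metastasis to brain. They are called the parental, bone-selected and brain-selected lines. Cells of each line were grown in RPMI-1640 with serum and were kept by magnetic sorting if they were negative for CD24 and positive for CD44 and ESA, the protein of EPCAM. Each derivative is 1 selected line, so a difference belongs to that line and cannot be told apart from chance differences between lines of the same origin. The labels do not say whether replicates were grown or sorted separately, and the p-values reflect only how far these arrays scatter, which may be technical.

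Integrins are cell surface receptors made of an alpha and a beta chain, and the pair decides which matrix protein or cell is bound. Chains that pair with ITGB1 make most receptors for collagen, laminin and fibronectin, ITGAV with ITGB3 or ITGB5 binds proteins with an RGD sequence such as vitronectin, and ITGB2 pairs with alpha chains of white blood cells. Laminins are secreted trimers of an alpha, a beta and a gamma chain that polymerise into basement membranes and are bound by ITGA3, ITGA6 and other receptors. In breast tissue this adhesion anchors epithelial cells to the basement membrane, and it changes as tumour cells cross it.

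Values are log2 expression values after the RMA normalization, 1 per gene and array. A difference of 1 is therefore 2-fold. Group values are means ± SD (n = 2), differences are given ± SE, and a chain was called when its adjusted p in limma was under 0.05. Replicate arrays correlated at r = 0.9935 to 0.9959 across clusters, which are not independent replicates, and arrays of different lines at 0.9666 to 0.9832. Of 7 mesenchymal markers 0 rose and 1 fell in 231BoM-1833 (limma; 0 and 2 at an unadjusted p under 0.05), and 0 rose and 2 fell in 231BrM-2a (0 and 3). ZEB1, a repressor of epithelial genes, fell in both (-0.44 and -0.54, adjusted p = 0.0248 and 0.00855). Of 10 luminal and junctional epithelial markers 3 rose and 1 fell in 231BrM-2a and 0 rose and 2 fell in 231BoM-1833 (1 and 3 at an unadjusted p under 0.05). Of all clusters 10.5% were called higher and 8.59% lower in 231BrM-2a, and 8.43% and 7.38% in 231BoM-1833. VIM, a mesenchymal filament gene, lay between 12.30 and 12.92 on all arrays, and was lower in 231BrM-2a than in MDA-MB-231 (-0.37, adjusted p = 0.0294) and than in 231BoM-1833 (-0.59, adjusted p = 0.00256). CDH1, the epithelial cadherin gene, lay between 5.19 and 5.96. EPCAM was 8.32 and 7.28 on the arrays of 231BoM-1833, the widest gap between replicates of a line for this sort marker. In the same replicates LAMB3, LAMA4 and ITGB4 also lay apart, by 0.477, 0.516 and 0.563; whether the sort plays a part in those gaps was not tested. In such bulk samples, fewer cells of a type and less RNA per cell cannot be told apart.

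Most of the 10 laminin chains measured were called in the brain-selected line. LAMA5, LAMB1, LAMB2, LAMC1 and LAMA1 rose and LAMA4 and LAMB3 fell against MDA-MB-231, 7 of 10 chains in all. Of all clusters 19.0% were called in that comparison. The calls of LAMB2, LAMC1 and LAMA1 were each lost under some alternative given below. With all clusters tested, with or without a symbol, 5 of the 10 were called. Among the integrins of that line, ITGB3, ITGAV and ITGB5 rose, while ITGA10, ITGA2, ITGA6 and ITGB2 fell. In the bone-selected line ITGA6, ITGA2 and ITGAV rose, and ITGA10, ITGB2, ITGB5, ITGB7, ITGA2B, LAMB1 and LAMA5 fell. The derivatives thus lay on opposite sides of the parental line for ITGA2, ITGA6, ITGB5, LAMA5 and LAMB1. These are 5 of the 8 chains called in both comparisons with it, which share the MDA-MB-231 arrays. The remaining 3, ITGA10, ITGB2 and ITGAV, were called in the same direction in both. For each of the 5 chains on opposite sides, a call against MDA-MB-231 was lost under some alternative given below. The share of all clusters called in both that lay on opposite sides was not counted.

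**Figure D1:**
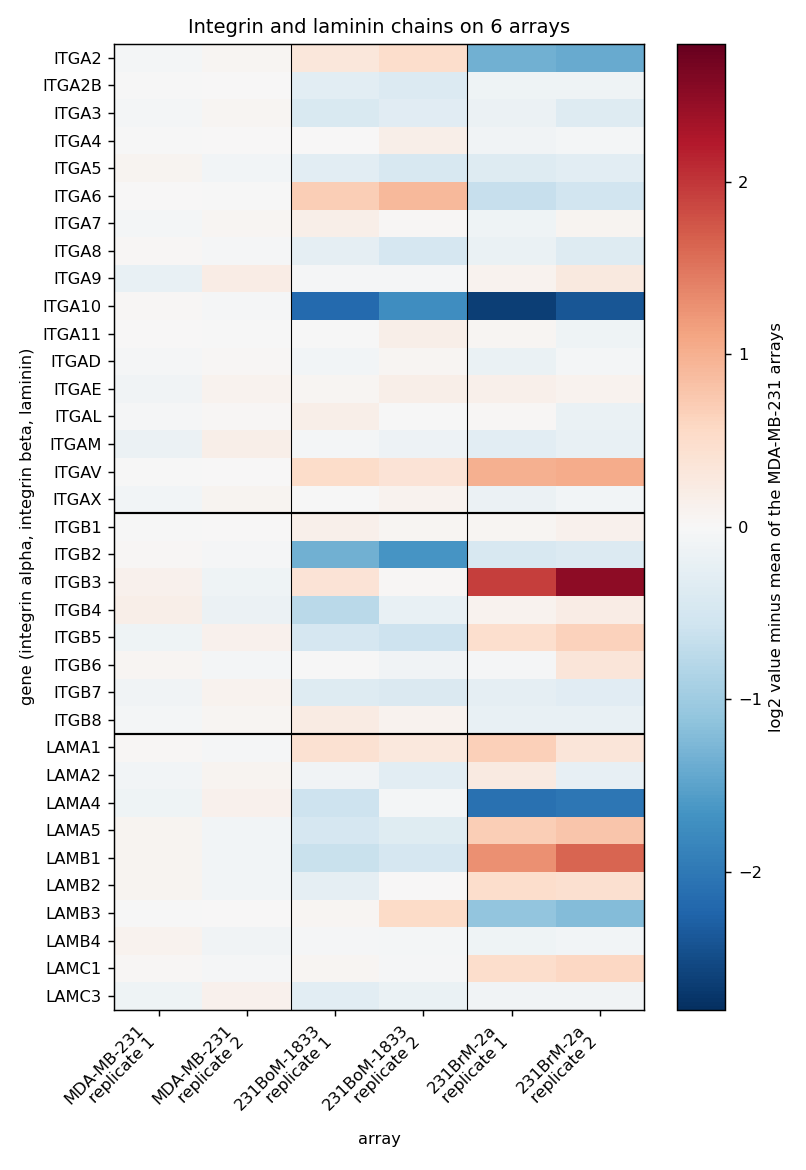
Log2 value of each of the 35 chains (rows, grouped as integrin alpha, integrin beta and laminin) on each of the 6 arrays (columns), minus the mean of the MDA-MB-231 arrays of that gene; red is higher and blue lower. ITGB3 and LAMB1 are at their reddest on the 231BrM-2a arrays, LAMA4 and LAMB3 are blue there, and ITGA10 is blue on all 4 arrays of the derivatives.

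In the comparison of 231BoM-1833 with MDA-MB-231, 10 of 35 chains (28.6%) were called, against 15.8% of all tested clusters. In it 3 chains rose and 7 fell, where 8.43% and 7.38% of all clusters did. For 231BrM-2a against MDA-MB-231, 14 chains (40%) were called, 8 higher and 6 lower, against 19.0% of all clusters (10.5% higher and 8.59% lower). Between the derivatives, 15 chains (42.9%) were called, 9 higher and 6 lower in 231BrM-2a, against 23.5% of all clusters (12.5% and 11.0%). The median absolute difference of the 35 chains was 0.242, 0.261 and 0.209 in these comparisons, and 0.184, 0.186 and 0.183 over all clusters. In all, 18 chains were called in at least 1 comparison and 17 in none, and 11 had a called change of at least 2-fold. The matching shares of all clusters were not counted, so these 3 counts have no reference here.

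**Figure D2:**
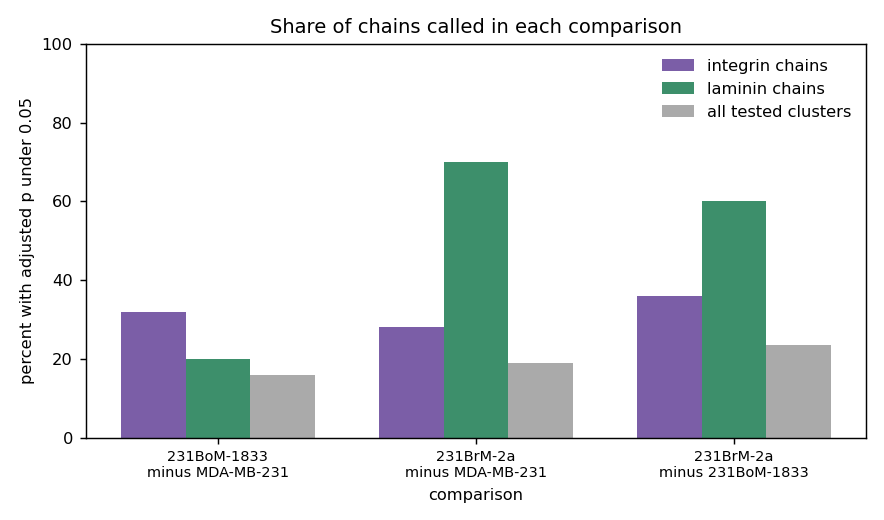
Percent of the 25 integrin chains, of the 10 laminin chains and of all 21214 tested clusters (bars) with an adjusted p under 0.05 in each comparison (horizontal axis). Laminin chains reach 70% in 231BrM-2a against MDA-MB-231 and 20% in 231BoM-1833 against MDA-MB-231.

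The DNA just before the start of transcription is shown for those chains with a called change of at least 2-fold and exactly 1 window in the RefSeq promoter table (GRCh38.p14). The table had windows for 24 of the 35 chains. Each window is the 250 bases before the start, read 5′ to 3′ on the gene's strand, and capitals mark matches on either strand to the motifs searched. The motifs were the GC box GGGCGG, the CCAAT box CCAAT, the TATA box TATAAA, the AP-1 site TGANTCA, the ZEB and SNAI E-box CAGGTG and the TEAD site CATTCC. Overlapping matches were each counted. The windows of ITGA10 (chr1:145910051-145910300, minus strand) and LAMA4 (chr6:112254568-112254817, minus strand) belong to the chains that fell most, ITGA2 (chr5:52989102-52989351, plus strand) is the collagen receptor chain that fell in the brain-selected line, and LAMB1 (chr7:108003162-108003411, minus strand) and LAMA5 (chr20:62367313-62367562, minus strand) are laminin chains that rose there.
ITGA10: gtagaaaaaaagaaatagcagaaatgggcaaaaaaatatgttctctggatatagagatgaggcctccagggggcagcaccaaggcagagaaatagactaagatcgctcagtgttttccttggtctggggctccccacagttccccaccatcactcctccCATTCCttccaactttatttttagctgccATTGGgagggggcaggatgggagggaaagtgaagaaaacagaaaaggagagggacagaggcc
LAMA4: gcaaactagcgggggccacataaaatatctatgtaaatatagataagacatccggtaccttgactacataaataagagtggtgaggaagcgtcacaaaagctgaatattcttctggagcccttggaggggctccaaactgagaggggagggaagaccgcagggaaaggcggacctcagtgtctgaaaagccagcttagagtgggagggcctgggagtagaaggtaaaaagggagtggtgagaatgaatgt
ITGA2: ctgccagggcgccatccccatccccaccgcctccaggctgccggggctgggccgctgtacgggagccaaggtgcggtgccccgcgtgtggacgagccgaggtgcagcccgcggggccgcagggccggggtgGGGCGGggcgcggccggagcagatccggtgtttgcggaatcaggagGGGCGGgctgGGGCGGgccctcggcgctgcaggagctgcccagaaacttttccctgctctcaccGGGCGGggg
LAMB1: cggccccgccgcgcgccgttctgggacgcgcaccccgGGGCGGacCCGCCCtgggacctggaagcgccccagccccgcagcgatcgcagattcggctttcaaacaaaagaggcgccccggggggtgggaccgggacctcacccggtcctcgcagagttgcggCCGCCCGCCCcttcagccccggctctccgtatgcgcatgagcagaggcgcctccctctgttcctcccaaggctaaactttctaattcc
LAMA5: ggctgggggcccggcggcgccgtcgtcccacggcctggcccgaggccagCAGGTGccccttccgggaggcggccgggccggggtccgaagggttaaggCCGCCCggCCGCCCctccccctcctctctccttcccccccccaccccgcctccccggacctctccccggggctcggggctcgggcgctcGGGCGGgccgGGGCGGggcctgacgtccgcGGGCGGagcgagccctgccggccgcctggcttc
The windows of LAMB1, LAMA5 and ITGA2 held 28, 32 and 26 CpG dinucleotides, and those of ITGA10 and LAMA4 held 1 and 5, where the median of 35114 windows was 11. The GC box matched 4 times in LAMB1, 5 times in LAMA5 and 4 times in ITGA2, and was not among the letters of the ITGA10 and LAMA4 windows. It matched in 42.6% of all windows, the CCAAT box in 32%, the TATA box in 10.7%, the AP-1 site in 6.57%, the E-box in 17.5% and the TEAD site in 11.9%. The capitals in the ITGA10 window are 1 CCAAT box and 1 TEAD match, and LAMA5 also held 1 E-box. ITGA2 fell in 231BrM-2a and LAMB1 rose there, with 26 and 28 CpG dinucleotides in their windows. A match is a description of letters, and no binding was measured.

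Among laminin alpha chains, LAMA5 and LAMA4 moved in opposite directions in the brain-selected line. LAMA5, found in basement membranes of many epithelia, was 9.23 and 9.08 in MDA-MB-231, 8.68 and 8.82 in 231BoM-1833, and 9.84 and 9.93 in 231BrM-2a. The lines did not overlap, with the brain-selected line highest and the bone-selected line lowest. LAMA5 rose 1.66-fold in 231BrM-2a against MDA-MB-231 (0.73 ± 0.11, adjusted p = 0.0023) and was 2.20-fold higher than in 231BoM-1833 (adjusted p = 0.000129). Its fall in 231BoM-1833 (-0.41 ± 0.11, adjusted p = 0.0388) was lost without either parental array or bone-selected array 1 (-0.48 to -0.33). The fall was also lost with only the 2 compared lines in the fit (adjusted p = 0.0642). LAMA4, a chain of vessel and mesenchymal laminins, was 7.18 and 7.40 in MDA-MB-231, 6.71 and 7.23 in 231BoM-1833, and 5.21 and 5.27 in 231BrM-2a. The brain-selected arrays lay well below all others, while those of the other lines overlapped. LAMA4 fell 4.14-fold in 231BrM-2a against MDA-MB-231 (-2.05 ± 0.17, adjusted p = 8.41e-05) and was 3.33-fold lower than in 231BoM-1833 (adjusted p = 0.00011). In 231BoM-1833 its difference from MDA-MB-231 was -0.31 (95% interval -0.69 to 0.06, adjusted p = 0.225), and it was called lower without bone-selected array 2 (-0.57, adjusted p = 0.0342). LAMA1, a chain of early embryonic basement membranes, rose in 231BrM-2a from 6.21 ± 0.037 to 6.72 ± 0.23 (0.51 ± 0.13, adjusted p = 0.0243). That call was lost without either parental array or brain-selected array 1 (adjusted p = 0.0872 to 0.1695, with a difference of 0.35 in the last case).

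Of the 4 beta chains, LAMB1 and LAMB2 rose and LAMB3 fell in the brain-selected line, and LAMB4 was not called. LAMB1, a beta chain of most basement membranes, was 9.35 and 9.20 in MDA-MB-231, 8.66 and 8.80 in 231BoM-1833, and 10.56 and 10.90 in 231BrM-2a. No line overlapped another. LAMB1 rose 2.74-fold in 231BrM-2a (1.46 ± 0.14, adjusted p = 0.000155) and stood 4.01-fold above 231BoM-1833 (2.0 ± 0.14, adjusted p = 1.46e-05). Its fall in 231BoM-1833 (-0.55 ± 0.14, adjusted p = 0.0272) was lost without either parental array or bone-selected array 1 (adjusted p = 0.0922 to 0.138). LAMB4, the coding gene next to LAMB1 in the RefSeq order, lay between 4.67 and 4.89 on all arrays and was called in no comparison. LAMB3 encodes the beta chain of the laminin that anchors epithelia beneath hemidesmosomes. It was 11.28 and 11.32 in MDA-MB-231, 11.35 and 11.83 in 231BoM-1833, and 10.19 and 10.09 in 231BrM-2a. The brain-selected arrays were below the other 4. LAMB3 fell 2.23-fold there (-1.16 ± 0.15, adjusted p = 0.00108) and was 2.73-fold lower than in 231BoM-1833 (adjusted p = 0.000184). Its difference in 231BoM-1833 was 0.30 ± 0.15 (adjusted p = 0.213), and it was called higher without bone-selected array 1 (0.53, adjusted p = 0.0263).

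LAMB2, the beta chain known from muscle synapses and kidney filters, rose from 10.22 ± 0.11 in the parental line to 10.69 ± 0.02 in the brain-selected line (0.47 ± 0.12, adjusted p = 0.027). That call was lost without any array of either line (adjusted p = 0.0627 to 0.1744). LAMB2 was also higher in 231BrM-2a than in 231BoM-1833, by 0.59 ± 0.12 (adjusted p = 0.00775; 0.0521 without brain-selected array 1). LAMC1, the gamma chain shared by most laminins, was 10.66 and 10.61 in MDA-MB-231, 10.70 and 10.61 in 231BoM-1833, and 11.12 and 11.22 in 231BrM-2a. The first 2 lines could not be separated and the brain-selected arrays were higher. LAMC1 rose 1.45-fold against MDA-MB-231 (0.54 ± 0.10, adjusted p = 0.00736; 0.0628 without parental array 2 and 0.0682 without brain-selected array 2). Against 231BoM-1833 it was 0.52 ± 0.10 higher (adjusted p = 0.00662; 0.0609 without brain-selected array 2). LAMA5, LAMB1 and LAMC1, which together form a common trimer, were each higher in 231BrM-2a than on every array of the other lines. LAMA2 and LAMC3 were not called, with differences between -0.24 and 0.20 over the 3 comparisons. In 231BoM-1833 against MDA-MB-231, limma called 0 of 10 laminin chains higher, and 1 at an unadjusted p under 0.05.

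**Figure D3:**
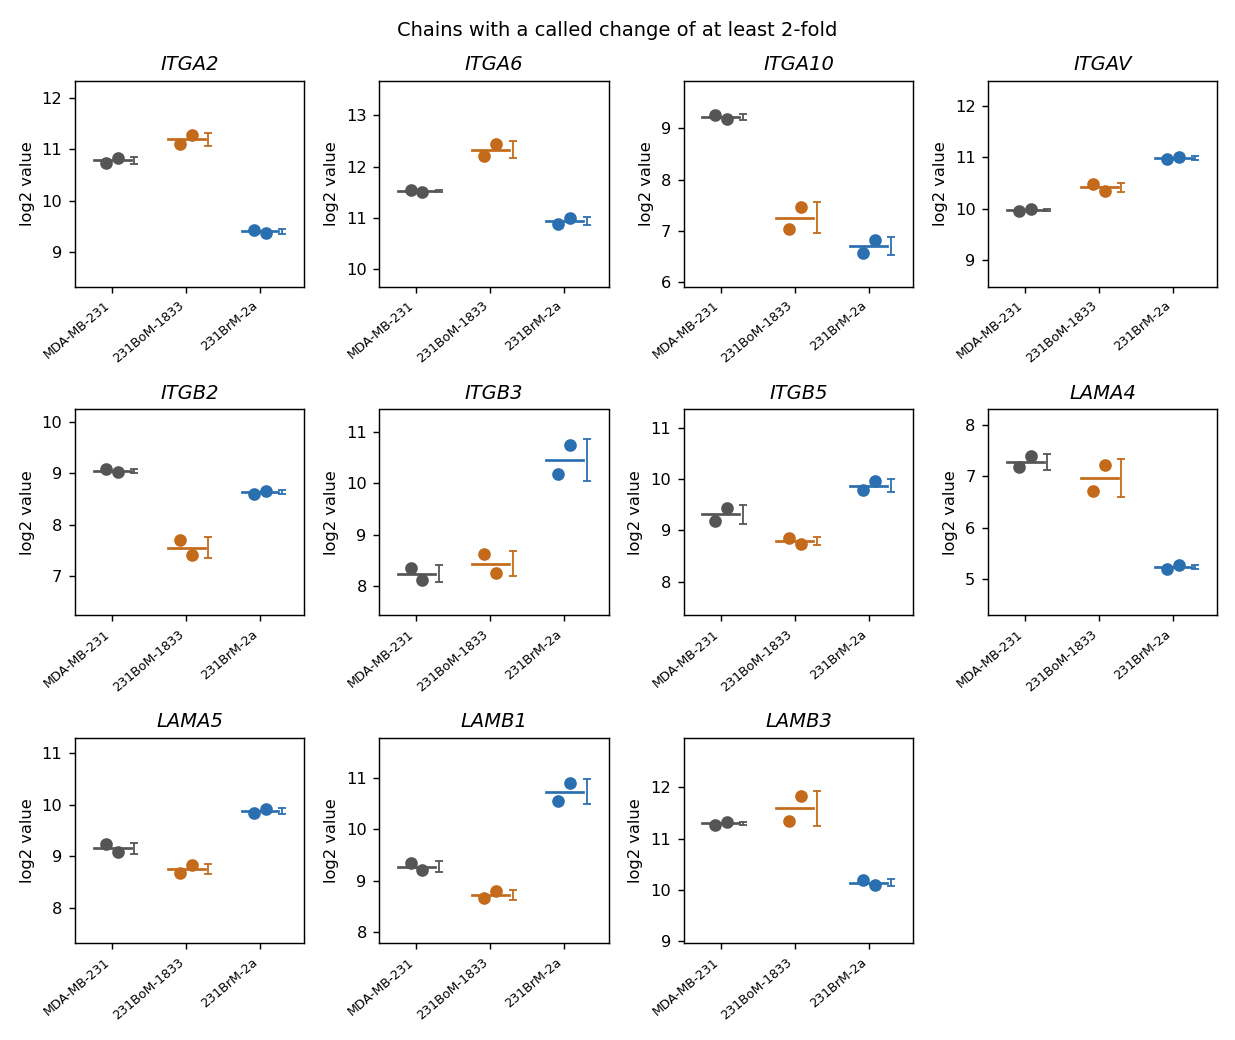
Log2 value on each array (points) with the mean (line) and SD (bar, n = 2) of each line, for the 11 chains with a called change of at least 2-fold; each vertical axis spans 4 log2 units, with its own centre. LAMA5 and LAMB1 are highest and LAMA4 and LAMB3 lowest in 231BrM-2a, while ITGA10 lies above 9 in MDA-MB-231 only.

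Of the 3 collagen-binding alpha chains measured, ITGA10 and ITGA2 fell in the brain-selected line and ITGA11 was not called. ITGA10, a collagen receptor chain best known from cartilage, was 9.26 and 9.18 in MDA-MB-231, 7.04 and 7.48 in 231BoM-1833, and 6.58 and 6.83 in 231BrM-2a. The parental arrays stood apart from all 4 derivative arrays. The fall was 3.89-fold in 231BoM-1833 (-1.96 ± 0.15, adjusted p = 0.000122) and 5.72-fold in 231BrM-2a (-2.52 ± 0.15, adjusted p = 1.97e-05). The difference between the derivatives, -0.56 ± 0.15 (adjusted p = 0.029), was lost with only the 2 compared lines in the fit (0.0506). The call was also lost without bone-selected array 2 (-0.34) or brain-selected array 1 (-0.43). ITGA2, which with ITGB1 binds collagen and laminin, was 10.73 and 10.84 in MDA-MB-231, 11.11 and 11.29 in 231BoM-1833, and 9.43 and 9.37 in 231BrM-2a. The brain-selected line was the lowest and the bone-selected line the highest. ITGA2 fell 2.61-fold in 231BrM-2a (-1.38 ± 0.11, adjusted p = 8.13e-05) and was 3.47-fold lower than in 231BoM-1833 (-1.79 ± 0.11, adjusted p = 8.51e-06). Its rise in 231BoM-1833 was small (0.41 ± 0.11, adjusted p = 0.0367). The rise was not called without either parental array or bone-selected array 2 (0.32 to 0.46). Nor was it called with only the 2 compared lines in the fit (adjusted p = 0.0627). ITGA11, a further collagen-binding chain, was called in no comparison, at 5.55 to 5.85.

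Among laminin receptor chains, ITGA6 was lower and ITGB4 higher in 231BrM-2a than in 231BoM-1833, and ITGA3 and ITGB1 were not called between them (0.12 and -0.02, adjusted p = 0.52 and 0.934). ITGA6, which pairs with ITGB1 or ITGB4, was 11.55 and 11.51 in MDA-MB-231, 12.21 and 12.44 in 231BoM-1833, and 10.89 and 11.00 in 231BrM-2a. The 3 lines did not overlap. ITGA6 rose 1.74-fold in 231BoM-1833 (0.80 ± 0.12, adjusted p = 0.00279) and fell 1.5-fold in 231BrM-2a (-0.58 ± 0.12, adjusted p = 0.00803). The fall was lost without parental array 1 (0.0536), parental array 2 (0.0534) or brain-selected array 1 (0.0656), while the difference between the derivatives, -1.38 ± 0.12, was called with any array left out (adjusted p = 5.18e-05 with all arrays). ITGB4, the hemidesmosome chain, was 8.63 and 8.30 in MDA-MB-231, 7.70 and 8.27 in 231BoM-1833, and 8.57 and 8.68 in 231BrM-2a. The bone-selected replicates lay further apart than those of any other chain in that line. ITGB4 was higher in 231BrM-2a than in 231BoM-1833 by 0.64 ± 0.18 (adjusted p = 0.0336), a call lost without bone-selected array 1 (0.36, adjusted p = 0.15) or either brain-selected array (0.0963 and 0.1591). Against MDA-MB-231 it was called lower in 231BoM-1833 only without bone-selected array 2 (-0.76, adjusted p = 0.0205; -0.48, adjusted p = 0.107 with it). ITGA3, the laminin receptor chain that pairs with ITGB1, had differences of -0.38 ± 0.11 in 231BoM-1833 and -0.26 ± 0.11 in 231BrM-2a (adjusted p = 0.0526 and 0.148). ITGB1, the shared partner of these chains, lay between 11.96 and 12.12 on all 6 arrays. Its 95% intervals were -0.13 to 0.33 in 231BoM-1833 and -0.15 to 0.31 in 231BrM-2a, so a change of ITGB1 as large as that of ITGA2 or ITGA10 in 231BrM-2a lies outside them. ITGA5, the fibronectin receptor chain, had -0.37 ± 0.11 and -0.33 ± 0.11 (adjusted p = 0.0522 and 0.0681).

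ITGA3 and ITGA5 in 231BoM-1833 and ITGA5 in 231BrM-2a were called when the arrays were quantile-normalized again (-0.41, -0.40 and -0.35, adjusted p = 0.0414, 0.0359 and 0.0471). They were also called when the dimmest 33.3% of clusters were left out (adjusted p = 0.0383, 0.0375 and 0.048) and with trend and robust priors (0.0247, 0.0301 and 0.0405). The calls of ITGA2, ITGA2B and ITGB7 in 231BoM-1833 were lost when quantile-normalized again (limma adjusted p = 0.05595, 0.06459 and 0.06056). Those of ITGA2B and ITGB7 were also lost with trend and robust priors (0.05682 and 0.05016). Fitting and adjusting over all 33297 clusters, with or without a symbol, ended 14 of the 39 chain calls, with adjusted p of 0.0509 to 0.1036. In 231BoM-1833 these were the calls of ITGA2, ITGA2B, ITGAV, ITGB5, ITGB7, LAMA5 and LAMB1. In 231BrM-2a they were those of ITGB2, ITGB5, LAMA1 and LAMB2, and between the derivatives those of ITGA10, ITGB4 and ITGB8.

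ITGAV and its partners ITGB3 and ITGB5 rose in the brain-selected line, while its partners ITGB1, ITGB6 and ITGB8 were not called there against MDA-MB-231 (0.08, 0.16 and -0.21). ITGB3, which pairs with ITGAV on many cells and with ITGA2B on platelets, was 8.35 and 8.12 in MDA-MB-231, 8.61 and 8.26 in 231BoM-1833, and 10.17 and 10.75 in 231BrM-2a. The first 2 lines overlapped and the brain-selected arrays lay above both. ITGB3 rose 4.67-fold against MDA-MB-231 (2.22 ± 0.19, adjusted p = 0.000117) and was 4.07-fold above 231BoM-1833 (adjusted p = 0.000116), the largest increase of any integrin chain. Its difference in 231BoM-1833 was 0.20 (95% interval -0.24 to 0.64, adjusted p = 0.521). ITGAV, the common alpha chain of RGD receptors, was 9.96 and 9.99 in MDA-MB-231, 10.48 and 10.36 in 231BoM-1833, and 10.97 and 11.01 in 231BrM-2a. The lines formed 3 steps with no overlap. ITGAV rose 2.02-fold in 231BrM-2a (1.01 ± 0.10, adjusted p = 0.000279) and 1.36-fold in 231BoM-1833 (0.44 ± 0.10, adjusted p = 0.0225), the latter lost without either parental array (0.1025 and 0.1077) or bone-selected array 1 (0.0727). The difference between the derivatives was 0.57 ± 0.10 (adjusted p = 0.00399).

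ITGB5, the vitronectin receptor chain that pairs with ITGAV alone, was 9.18 and 9.44 in MDA-MB-231, 8.85 and 8.74 in 231BoM-1833, and 9.78 and 9.97 in 231BrM-2a. It was lowest in the bone-selected line and highest in the brain-selected line. ITGB5 was 2.11-fold higher in 231BrM-2a than in 231BoM-1833 (1.08 ± 0.13, adjusted p = 0.000358). It fell in 231BoM-1833 (-0.52 ± 0.13, adjusted p = 0.0253), a call lost without parental array 2 (0.1762) or bone-selected array 2 (0.085). It rose in 231BrM-2a (0.56 ± 0.13, adjusted p = 0.0147), a call lost without parental array 1 (0.1053) or brain-selected array 2 (0.1188). ITGB8, another partner of ITGAV, was lower in 231BrM-2a than in 231BoM-1833 by a small step (-0.38 ± 0.11, adjusted p = 0.0297), lost without bone-selected array 1 or either brain-selected array (adjusted p = 0.1022 to 0.1331). ITGB6, which with ITGAV activates latent TGF-beta in epithelia, was not called, at 4.89 to 5.34.

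**Figure D4:**
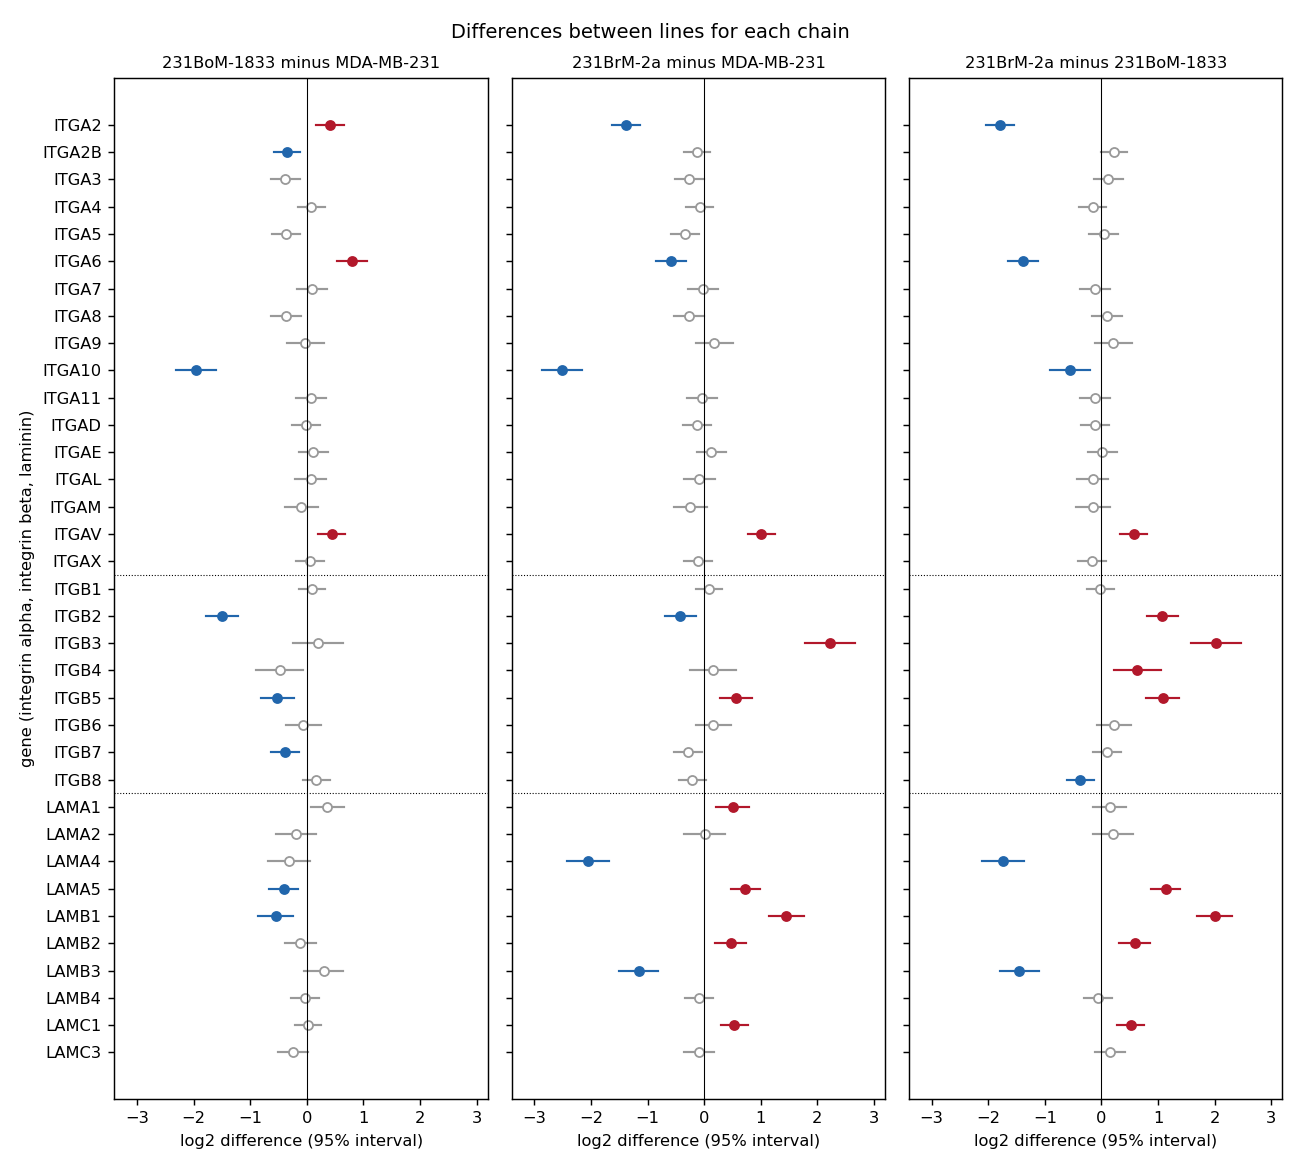
Log2 difference (point) with its 95% interval (line) for each of the 35 chains (rows) in the 3 comparisons (panels); red is called higher, blue called lower and open grey not called at an adjusted p of 0.05. ITGA2, ITGA6, ITGB5, LAMA5 and LAMB1 lie on opposite sides of 0 in the first 2 panels, and ITGB1 lies at 0.10, 0.08 and -0.02.

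The beta chain of white blood cell integrins, ITGB2, was measured at 9.08 and 9.03 in MDA-MB-231, 7.71 and 7.41 in 231BoM-1833, and 8.61 and 8.67 in 231BrM-2a. The bone-selected arrays were the lowest, and no line overlapped another. ITGB2 fell 2.82-fold in 231BoM-1833 (-1.50 ± 0.12, adjusted p = 0.000142) and was 2.11-fold higher in 231BrM-2a than in 231BoM-1833 (adjusted p = 0.000305). Its smaller fall in 231BrM-2a (-0.42 ± 0.12, adjusted p = 0.0438) was lost without any array of either line (adjusted p = 0.1408 to 0.1826). Its partner chains ITGAL, ITGAM, ITGAX and ITGAD, which form leukocyte receptors for cell adhesion and complement, were called in no comparison, at 5.01 to 6.11 over all arrays. Of 13 markers of leukocytes, 1 was higher in 231BoM-1833, CD14 (0.88 ± 0.12, adjusted p = 0.00219), and 1 was lower, NKG7 (-0.37 ± 0.11, adjusted p = 0.0444). Over all clusters 8.43% were called higher and 7.38% lower there. In 231BrM-2a limma called 0 of the 13 higher and 2 lower (0 and 3 at an unadjusted p under 0.05). They were CD14 (-0.50 ± 0.12, adjusted p = 0.0195) and NKG7 (-0.37 ± 0.11, adjusted p = 0.0381). Of all clusters 10.5% were called higher and 8.59% lower in that line. The mean log2 level of the 13 was 5.745 and 5.775 in MDA-MB-231, 5.76 and 5.805 in 231BoM-1833, and 5.648 and 5.614 in 231BrM-2a. PTPRC, which encodes the defining leukocyte antigen CD45, lay between 3.60 and 3.86 on all arrays and was called in no comparison. The part of such cells in the fall of ITGB2 was not tested.

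ITGB7, which pairs with ITGA4 or ITGAE in lymphocytes, and ITGA2B, the platelet partner of ITGB3, were called lower in 231BoM-1833 (-0.38 and -0.35, adjusted p = 0.046 and 0.0487). Each call was lost when any single array of the 2 compared lines was left out. Each was also lost with only those 2 lines in the fit (limma adjusted p = 0.07595 for ITGB7 and 0.0824 for ITGA2B). Of 11 platelet and endothelial markers, limma called 0 in that comparison, and 1 higher and 1 lower at an unadjusted p under 0.05. Of all clusters 15.8% were called in it. The remaining integrin chains ITGA4, ITGA7, ITGA8, ITGA9 and ITGAE, receptors of lymphocytes, muscle and other tissues, were called in no comparison. ITGA8 was called lower in 231BoM-1833 without bone-selected array 1 (-0.48, adjusted p = 0.0428). Among the 17 chains called in none, differences ran from -0.38 to 0.22. By mean value 15 of the 35 chains fell in the dimmest 33.3% of named clusters, 3 of them called in a comparison (ITGA2B, ITGB7 and ITGB8). Folds of dim clusters may be compressed, and no background level came with the values.

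COL4A1 and COL4A2, chains of the type IV collagen of basement membranes, rose in the brain-selected line and fell in the bone-selected line. Of 20 basement membrane genes other than laminins, limma called 5 higher and 0 lower in 231BrM-2a. At an unadjusted p under 0.05 these counts were 5 and 1. Over all clusters 10.5% rose and 8.59% fell there. In 231BoM-1833 2 genes of the list rose and 3 fell, against 8.43% and 7.38% of all clusters. Between the derivatives 8 were higher and 3 lower in 231BrM-2a, against 12.5% and 11.0% of all clusters. The list's median difference was 0.0251, -0.0681 and 0.0342 in that order, against -0.0495, -0.0521 and 0.0127 over all clusters. COL4A1, the type IV collagen chain that shares the basement membrane with laminin, was 8.39 and 8.20 in MDA-MB-231, 7.60 and 7.25 in 231BoM-1833, and 10.42 and 10.43 in 231BrM-2a. It had the order of LAMB1, highest in the brain-selected and lowest in the bone-selected line. COL4A1 rose 4.38-fold in 231BrM-2a (adjusted p = 2.57e-05), fell 1.83-fold in 231BoM-1833 (adjusted p = 0.00413), and its partner COL4A2 rose 3.06-fold and fell 1.74-fold (adjusted p = 2.67e-05 and 0.0018). The other type IV chains did not share this pattern. COL4A4 rose in 231BrM-2a (0.79, adjusted p = 0.00215) and was not called in 231BoM-1833 (0.13, adjusted p = 0.478). COL4A5 was lower in 231BrM-2a than in 231BoM-1833 (-0.43, adjusted p = 0.0433) and was called in neither comparison with MDA-MB-231, and COL4A3 and COL4A6 were called in no comparison. HSPG2, the basement membrane proteoglycan perlecan, rose 1.80-fold in 231BrM-2a (adjusted p = 0.00177), and AGRN, which binds laminin at synapses, 1.53-fold (adjusted p = 0.00478). NID1 and NID2, which link laminin to type IV collagen, were called in no comparison, at 5.01 to 5.68. FRAS1 and FREM2, which join epithelium to the matrix below it, rose instead in 231BoM-1833, 2.21-fold and 2.03-fold (adjusted p = 0.000894 and 0.00491).

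Of 7 measured genes for laminin receptors other than integrins and for the enzymes that modify them, limma called 3 higher and 0 lower in 231BrM-2a against MDA-MB-231, and 0 higher and 4 lower in 231BoM-1833. At an unadjusted p under 0.05 these counts were 3 and 1, and 1 and 4. Of all clusters 10.5% were called higher and 8.59% lower in 231BrM-2a, and 8.43% and 7.38% in 231BoM-1833. The median difference of the 7 genes was 0.158 and -0.432, against -0.0495 and -0.0521 over all clusters. SDC2, a heparan sulphate proteoglycan, was 8.78 and 8.65 in MDA-MB-231, 8.31 and 8.06 in 231BoM-1833, and 10.24 and 10.31 in 231BrM-2a. It rose 2.96-fold in the brain-selected line (adjusted p = 6.24e-05), and was 4.27-fold higher there than in the bone-selected line (adjusted p = 5.28e-06). BCAM, the receptor of LAMA5 that carries the Lutheran blood group, rose 1.63-fold in 231BrM-2a and was 2.21-fold above 231BoM-1833 (adjusted p = 0.00156 and 6.3e-05). ADGRG6, an adhesion receptor that binds laminin and type IV collagen, rose 1.49-fold (adjusted p = 0.0125; 0.1104 at most without parental array 2 or brain-selected array 2). All 3 were lower in 231BoM-1833 than in MDA-MB-231 by 0.44 to 0.64 (adjusted p = 0.0113 to 0.0195). Those falls were lost without parental array 1 for each, and without parental array 2 or bone-selected array 2 for SDC2 and BCAM (adjusted p up to 0.1163).

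**Figure D5:**
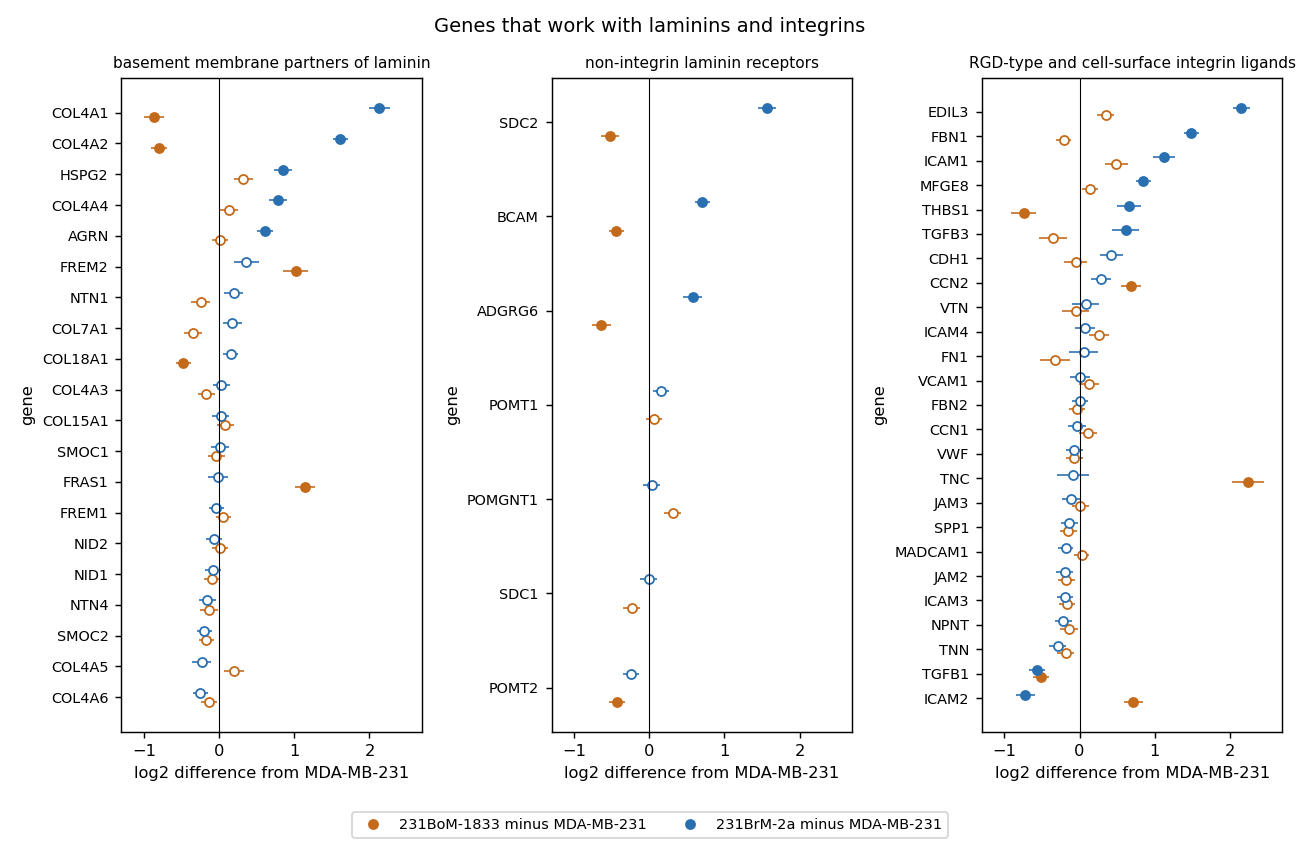
Log2 difference from MDA-MB-231 (points, with SE as lines) in 231BoM-1833 (orange) and 231BrM-2a (blue) for basement membrane genes, other laminin receptors and integrin ligands (panels, genes in rows); filled points were called at an adjusted p of 0.05. COL4A1, COL4A2, SDC2, BCAM and ADGRG6 lie right of 0 in 231BrM-2a and left of it in 231BoM-1833, which share the MDA-MB-231 arrays as control.

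Of 8 markers of fibroblasts, which also make basement membrane and matrix, 4 were higher in 231BrM-2a than in MDA-MB-231 and 0 lower (limma, and the same counts at an unadjusted p under 0.05). They were PDGFRB (3.25-fold), DCN (1.97-fold), COL1A1 (1.5-fold) and LUM (1.29-fold), with adjusted p of 6.54e-05 to 0.044. Of all clusters 10.5% were called higher and 8.59% lower in that comparison. The mean log2 level of the 8 was 5.392 and 5.322 in MDA-MB-231, 5.212 and 5.286 in 231BoM-1833, and 5.758 and 5.869 in 231BrM-2a. PDGFRA and FAP, further markers of those cells, were called in no comparison, at 4.80 to 5.21 and 3.91 to 4.16. The part of such cells or of such a programme in the laminin changes was not tested.

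Of 25 ligands of integrins, 6 rose and 2 fell in 231BrM-2a, where 10.5% and 8.59% of all clusters did. In 231BoM-1833 3 rose and 2 fell, where 8.43% and 7.38% of all clusters did. Compared directly, 6 were higher and 2 lower in 231BrM-2a than in 231BoM-1833, against 12.5% and 11.0% of all clusters. The median of this difference was -0.0214 for the ligands and 0.0127 over all clusters. The largest rises in 231BrM-2a were EDIL3, a secreted RGD ligand of ITGAV receptors (4.45-fold, adjusted p = 8.26e-06), FBN1, a microfibril protein with an RGD site (2.81-fold, adjusted p = 3.56e-05), and ICAM1, a ligand of ITGB2 integrins (2.17-fold, adjusted p = 0.0011). In 231BoM-1833 the largest was TNC, a matrix glycoprotein bound by ITGAV and ITGA9 receptors, at 8.02 and 8.19 in MDA-MB-231, 9.97 and 10.73 in 231BoM-1833, and 8.12 and 7.93 in 231BrM-2a (4.74-fold, adjusted p = 0.000335). ICAM2, also a ligand of ITGB2 integrins, rose 1.65-fold in 231BoM-1833 (adjusted p = 0.00697; 0.0534 at most without either parental array) and fell 1.65-fold in 231BrM-2a (adjusted p = 0.00432). THBS1, thrombospondin, fell 1.68-fold in 231BoM-1833 (adjusted p = 0.0163; 0.0891 at most without either parental array). FN1, fibronectin, was not called, and lay between 11.83 and 12.58.

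Inside the cell, 33 genes of integrin adaptors and signalling were measured. In 231BoM-1833 1 rose and 4 fell, where 8.43% and 7.38% of all clusters did. In 231BrM-2a 5 rose and 3 fell, against 10.5% and 8.59% of all clusters. Between the derivatives limma called 11 higher and 0 lower in 231BrM-2a, against 12.5% and 11.0% of all clusters. At an unadjusted p under 0.05 these last counts were 16 and 3. The median difference between the derivatives was 0.268, against 0.0127 over all clusters. TLN2, a talin that links beta chains to actin, was 7.07 and 6.92 in MDA-MB-231, 7.02 and 6.87 in 231BoM-1833, and 8.33 and 8.501 in 231BrM-2a. Only the brain-selected arrays stood apart (2.68-fold, adjusted p = 9.13e-05). NEDD9, a docking protein of focal adhesions, rose 3.06-fold in 231BrM-2a (adjusted p = 0.000744) and 2.15-fold in 231BoM-1833 (adjusted p = 0.00726; 0.0702 without parental array 2). PTK2B, a focal adhesion kinase relative, was 2.0-fold higher in 231BrM-2a than in 231BoM-1833 (adjusted p = 0.00361). FERMT1, a kindlin that activates integrins, and TNS2, a tensin, fell in 231BoM-1833 by 0.88 and 0.86 (adjusted p = 0.00618 and 0.00173). The FERMT1 call was lost without parental array 2 (0.0521).

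Of 14 surface proteins that associate with integrins, 3 rose and 1 fell in 231BoM-1833, where 8.43% and 7.38% of all clusters did. PLAUR, the urokinase receptor, rose 2.42-fold (adjusted p = 0.000305), CD47, which binds ITGB3 integrins and thrombospondin, rose 2.20-fold (adjusted p = 0.00033), and CAV1, caveolin, fell 1.79-fold (adjusted p = 0.00738; 0.07 without parental array 2). Of all clusters 10.5% were called higher and 8.59% lower in 231BrM-2a. There limma called 0 of the 14 higher and 1 lower, with the same counts at an unadjusted p under 0.05. The gene was PLAUR (-0.46 ± 0.12, adjusted p = 0.0266), lost without any array of either line (adjusted p up to 0.1704). CD151, the tetraspanin partner of laminin receptors, was called in no comparison. Of the 3 hemidesmosome genes besides ITGA6 and ITGB4, DST, which ties ITGB4 to keratin filaments, rose 1.78-fold in 231BoM-1833 and was 2.36-fold lower in 231BrM-2a than there (adjusted p = 0.00161 and 5.88e-05). PLEC, plectin, fell 1.49-fold in 231BoM-1833 (adjusted p = 0.0124; 0.0834 without parental array 1). DST had the order of ITGA6 across the lines, at 9.24 and 9.16 in the parental, 10.10 and 9.96 in the bone-selected and 8.80 and 8.78 in the brain-selected line.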

How the data were processed

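Transcript levels were measured on 6 arrays. The deposited values are log2 values made by the authors by RMA with Expression Console of Affymetrix, per the series design text and the submitters' processing notes, with no version given; RMA corrects background, quantile-normalizes arrays and summarises probes. Scanner files, detection calls and batches were not used here, and no genome build of the array was needed. A platform table gave 21214 of 33297 clusters a symbol, 19460 of them exactly 1. A mean per line was fitted over the 6 arrays by limma 3.58.1 under R 4.3.3 (eBayes; 3 residual and 6.06 prior degrees of freedom), two-sided, and p-values were adjusted by Benjamini-Hochberg over the 21214 clusters at 0.05. The code of the fit was run on simulated data whose noise followed the spread that limma assumes. Such a run cannot test the p-values on these arrays. Every chain was accounted for, and chains with a called change of at least 2-fold were given on all arrays. From each gene list up to 3 called genes per comparison were named, besides marker genes and uncalled genes named as values after they were seen. AGRN, COL4A4 and COL4A5 are called genes of the basement membrane list that were named beyond that limit. Members and lists were chosen with earlier results of these data known. Replicate numbers did not pair the arrays (correlation of deviations 0.0362, -0.162 and -0.165). Alternatives were another quantile normalization, all clusters tested, the dimmest 33.3% left out, trend and robust priors, a replicate block, only the compared lines in the fit, and each array left out. The alternative row per symbol gave no other value, since 0 chains had more than 1 row. Few arrays limit the precision of every value.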

Additional observations from a re-analysis of the deposited data

How the results depend on the processing

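No called difference of a chain changed direction under any of 13 alternatives, and 21 of 39 chain calls were kept in all of them (3 of 10 in 231BoM-1833 against MDA-MB-231, 8 of 14 in 231BrM-2a against MDA-MB-231 and 10 of 15 between the derivatives). Only another normalization or a left-out array of a compared line could change a direction, since the other alternatives leave the difference itself as it was. For 231BoM-1833 against MDA-MB-231, testing all clusters, with or without a symbol, gave 2220 calls in place of 3354. It gave 3 integrin chains in place of 8 and 0 laminin chains in place of 2 (3 laminin chains at an unadjusted p under 0.05 in limma). Only the 2 compared lines in the fit gave 5 integrin chains and 1 laminin chain. With each array left out in turn, the calls ran from 932 to 2936 clusters, 3 to 6 integrin chains and 0 to 3 laminin chains there (at least 2 laminin chains at an unadjusted p under 0.05). They ran from 1764 to 4751 clusters, 4 to 7 integrin and 4 to 7 laminin chains for 231BrM-2a against MDA-MB-231, and from 3001 to 4750 clusters, 6 to 8 integrin and 5 to 6 laminin chains between the derivatives. A left-out array leaves 1 in its line, assumed to vary like the others. Leaving out either array of the line not compared gives the same result as a fit of the 2 compared lines only. Calls lost without either such array are therefore 1 loss and say nothing about those arrays.

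The replicate block gave 5 integrin chains and 1 laminin chain in 231BoM-1833 against MDA-MB-231, and 6 and 7, then 8 and 6, in the other comparisons, with 2724, 3535 and 4564 clusters. With the numbers of 231BrM-2a exchanged, a pairing chosen after seeing the data, the block gave 3821, 4468 and 5387 clusters. The causes of these shifts were not tested.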
